A study of Mus musculus with 6 samples.

Results

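The Fos and Jun genes encode the subunits of the transcription factor AP-1, and 7 of them were described: Fos, Fosb, Fosl1, Fosl2, Jun, Junb and Jund. A member was taken as the probe set that the platform annotation gives to that gene and to no other, and each of the 7 genes had 1 such probe set. They were 7 of 19938 genes measured this way on 6 whole-transcript mouse arrays. On 3 arrays the RNA was of cultured satellite cells, the stem cells that lie along muscle fibres. These had spent 5 days on collagen and laminin, in F10 medium that held 20% donor horse serum and to which bFGF (5 ng/ml), a fibroblast growth factor, was added each day. The other 3 arrays were of satellite cells as sorted from resting hind-limb, abdominal and triceps muscle. All cells came from C57BL/6J mice 2 months old. Cells were sorted as positive for B1-Integrin and CXCR4 and negative for CD45, CD31, CD11b, Ter119 and Sca1. The labels mention 3 mice but do not say which mouse gave which array, so a p-value here covers only the spread among these 6 arrays, part of which may be technical. Fresh replicate 1 stood apart in the tendon marker Thbs4, at 6.11 against 3.89 and 2.98 on fresh replicates 2 and 3. It also did in the tendon marker Tnmd, at 4.86 against 2.57 and 2.93. The remaining tendon marker, Scx, did not set it apart, at 5.26, 5.23 and 4.69 on fresh replicates 1, 2 and 3. On the cultured arrays Scx was at 6.22, 5.59 and 5.95.

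AP-1 is a pair of basic leucine zipper proteins. Jun proteins can pair with each other or with a Fos protein, whereas Fos proteins bind DNA only with a partner such as a Jun protein. Fos, Fosb, Jun and Junb are classical immediate early genes, whose transcripts appear within minutes of a stimulus and are short-lived. Fosl1 and Fosl2 encode Fra-1 and Fra-2, which lack the strong activation domain of Fos, and Jund is the Jun gene known for more constant expression in resting cells. In muscle, AP-1 transcripts are known to be present in satellite cells taken out of the tissue, and the title of the series names Fos in the early events of their activation.

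The promoters of Fos, Jun and Junb are shown because they held matches to elements named below, which were chosen after the sequences were seen. Which promoters held a match is therefore no evidence about these genes. The sequences are from RefSeq (GRCm38.p6), which held an entry for 6 of the 7 genes. Each runs 5′ to 3′ along its gene for 300 bases, from 250 bases before the annotated start, which is base 251. Capitals mark matches on either strand to an AP-1 site (TGANTCA), a cyclic AMP response element (TGACGTCA), the shorter core TGACGT, a Jun-type site (TGACATCA), a CArG box, a MEF2 site, a TATA box (TATAAA) or a CCAAT box. The core is contained in the full element, and no other pair of matches overlapped in the sequences shown.
Fos, chr12:85473640-85473939, plus strand: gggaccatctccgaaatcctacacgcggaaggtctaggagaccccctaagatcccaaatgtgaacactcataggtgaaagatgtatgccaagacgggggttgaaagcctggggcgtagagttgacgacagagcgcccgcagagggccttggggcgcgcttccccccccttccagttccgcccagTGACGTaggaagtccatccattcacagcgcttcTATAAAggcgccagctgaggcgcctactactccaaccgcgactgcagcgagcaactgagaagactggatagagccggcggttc
Jun, chr4:95052173-95052472, minus strand: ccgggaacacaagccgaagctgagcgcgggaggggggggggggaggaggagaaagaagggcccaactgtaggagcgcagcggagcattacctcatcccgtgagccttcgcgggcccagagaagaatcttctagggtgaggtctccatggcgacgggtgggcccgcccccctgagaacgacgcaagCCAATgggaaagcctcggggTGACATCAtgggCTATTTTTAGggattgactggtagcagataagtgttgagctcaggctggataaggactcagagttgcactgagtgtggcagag
Junb, chr8:84978699-84978998, minus strand: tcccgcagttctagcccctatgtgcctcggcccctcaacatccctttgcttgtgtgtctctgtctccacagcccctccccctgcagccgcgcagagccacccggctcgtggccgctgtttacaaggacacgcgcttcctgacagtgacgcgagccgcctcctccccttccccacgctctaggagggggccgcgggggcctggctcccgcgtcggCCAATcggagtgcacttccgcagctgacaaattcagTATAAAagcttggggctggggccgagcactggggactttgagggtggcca

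In the Fos promoter the core TGACGT lay from base -66 to -61 and the TATA box from -33 to -28, counted from the annotated start. In the Jun promoter the Jun-type site lay from -45 to -38 and the MEF2 site from -33 to -24, behind a CCAAT box. In the Junb promoter the CCAAT box lay from -36 to -32, and the TATA box at bases 1 to 6, just past the annotated start. The windows of Fosb, Fosl2 and Jund held none of these letters. Of 32851 RefSeq promoters of this length, 7.81% held the AP-1 site, 1.79% the full cyclic AMP response element, 7.51% its core, 3.62% the Jun-type site and 13.6% the TATA box. A CCAAT box was in 37.4%, a MEF2 site in 3.19% and a CArG box in 1.63%. A match of letters is a description of the window only.

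The comparison of cultured with fresh satellite cells asked how the transcripts of AP-1 subunits differ after 5 days in growth medium. Of the 7 genes, 6 fell in the cultured cells, 1 did not pass the test, and none rose. A gene was called when its adjusted p in a limma fit over all 19938 genes was under 0.05. By that rule 4.32% of all genes were called, 3.37% lower in the cultured cells and 0.953% higher. The cultured arrays lay wholly below the fresh arrays for all 7 genes, against 10.3% of all genes. The median log2 fold change of the 7 genes was -3.89, and that of all genes 0.04. RNA of a whole sample was measured, so fewer cells with a transcript and less of it per cell cannot be told apart.

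**Figure D1:**
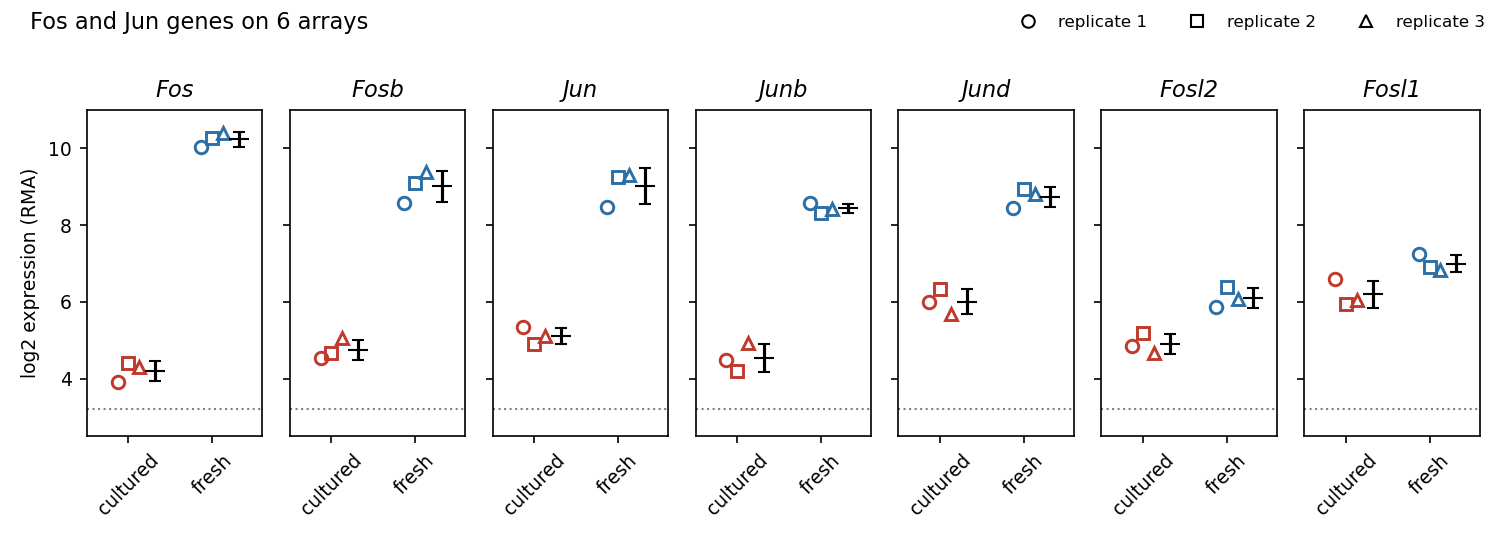
Log2 expression of the 7 Fos and Jun genes on 3 cultured arrays (red) and 3 fresh arrays (blue), ordered by the size of the fall, with a symbol per replicate number. Black bars are means with SD, and the dotted line is the background level of 3.23. Fos shows the widest gap between the groups and Fosl1 the narrowest.

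Fos, the founding member of the Fos proteins, had log2 expression values of 3.91, 4.40 and 4.30 on the cultured arrays, against 10.03, 10.26 and 10.40 on the fresh arrays. The lowest fresh value was 5.63 above the highest cultured value, and only 4 genes of the whole table had a lower log2 fold change. The change was -6.03 ± 0.18 (SE), or 65.2-fold lower with a 95% interval of 48.9-fold to 87.0-fold, at a limma adjusted p of 1.01e-05. The cultured mean of 4.20 was 0.98 above background, taken as the level under which 95% of olfactory and vomeronasal receptor genes lay in cultured cells. RMA, the method behind these values, compresses differences near background, so a fall that ends this low can be understated.

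Fosb, which pairs with Jun proteins like Fos and also makes a shorter splice form, had values of 4.54, 4.66 and 5.06 on the cultured arrays, against 8.56, 9.09 and 9.37 on the fresh arrays. The groups did not overlap, and the spread was wider among the fresh arrays than among the cultured ones. The fall was 4.26 ± 0.24 (SE) on the log2 scale, 19.1-fold, with a limma adjusted p of 5.29e-05. The probe set does not separate the splice forms in the table used here.

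Of the 2 Fra genes, Fosl2 fell and Fosl1 did not pass the test. Fosl2, which encodes Fra-2, had values of 4.85, 5.19 and 4.66 on the cultured arrays, against 5.86, 6.38 and 6.07 on the fresh arrays. The gap between the groups was 0.67, a little wider than the range of 0.53 among the cultured arrays. Its log2 fold change was -1.20 ± 0.20 (SE), with a limma adjusted p of 0.0135. The call was lost on leaving out any of 3 arrays: the limma adjusted p was 0.0582 without fresh replicate 2, 0.0641 without fresh replicate 3, and 0.0692 when cultured replicate 3 was dropped.

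Fosl1, which encodes Fra-1 and is itself a known AP-1 target in other cells, had values of 6.60, 5.94 and 6.05 on the cultured arrays, against 7.24, 6.90 and 6.83 on the fresh arrays. Cultured replicate 1 was the nearest to the fresh arrays, at 0.23 below the lowest of them. The log2 fold change was -0.80 ± 0.21 (SE), with a 95% interval of -1.28 to -0.31 and a limma adjusted p of 0.0874. Without cultured replicate 1 it was -0.996 with a limma adjusted p of 0.0117.

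Among the Jun genes, Jun, the main partner of Fos, had values of 5.33, 4.90 and 5.11 on the cultured arrays, against 8.47, 9.25 and 9.30 on the fresh arrays. The cultured values lay close together, while fresh replicate 1 was lower than the other 2 fresh arrays. The fall was 3.89 ± 0.24 (SE) on the log2 scale, 14.9-fold, with a limma adjusted p of 0.000109. Junb, a weaker activator than Jun that can restrain it, had values of 4.49, 4.21 and 4.94 on the cultured arrays, against 8.56, 8.32 and 8.41 on the fresh arrays. Here the fresh values were the tight group, with an SD of 0.12 against 0.37 in the cultured cells. Junb fell by 3.89 ± 0.20 (SE), 14.8-fold, with a limma adjusted p of 3.75e-05.

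Jund had values of 6.00, 6.34 and 5.69 on the cultured arrays, against 8.44, 8.94 and 8.80 on the fresh arrays. The groups were 2.10 apart at their nearest values. Jund fell by 2.72 ± 0.21 (SE) on the log2 scale, 6.57-fold with a 95% interval of 4.70-fold to 9.20-fold, with a limma adjusted p of 0.000343. Jund and Fosl1 were the genes with the widest margin above background in the cultured cells, at 2.78 and 2.97.

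The median gene with a level of 8 to 9.5 was lower on cultured replicates 2 and 3 than on the fresh arrays, whichever mean was used to choose them. Chosen by the mean over all 6 arrays, 136 genes in this range differed from their fresh levels by medians of 0.28 (cultured replicate 1), -1.26 (replicate 2) and -0.88 (replicate 3). Chosen by the cultured mean, 116 genes had medians of 0.62, -1.07 and -0.60, and chosen by the fresh mean, which favours genes that fell, 225 genes had medians of -0.48, -1.97 and -1.44. Of the 7 members, 6 had a mean over all arrays between 6 and 7.5. The 654 genes in that range had a median log2 fold change of -0.53, and 23.1% of them were called lower. Fosl2 had a mean between 5 and 6, where 1286 genes had a median of -0.14 and 13.8% were called lower. How far a member differed from the median of its range was not tested. On cultured replicate 1 Fos was at -6.32 from its fresh mean, Fosb at -4.47, Jun at -3.67, Junb at -3.94 and Jund at -2.73. On cultured replicate 2 the same genes were at -5.83, -4.35, -4.10, -4.23 and -2.39, and on cultured replicate 3 at -5.93, -3.95, -3.90, -3.49 and -3.04, so the falls were of similar size on all 3 cultured arrays.

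**Figure D2:**
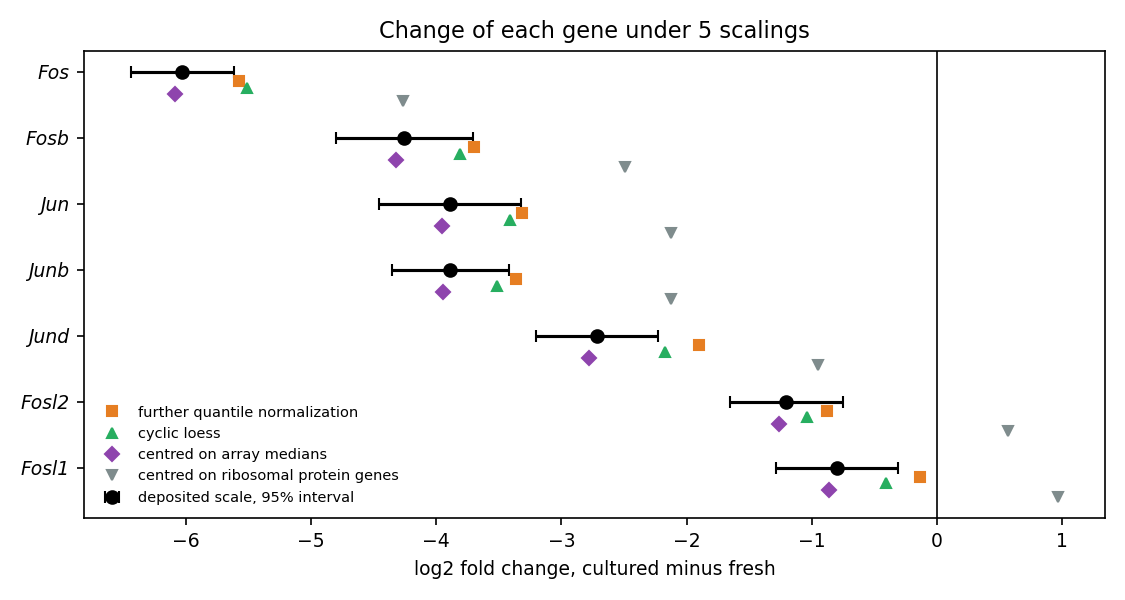
Log2 fold change of each gene, cultured minus fresh, on the deposited scale (black, with 95% intervals) and after 4 further scalings of the arrays. Fos, Fosb, Jun, Junb and Jund stay below 0 under all 5 scalings, whereas Fosl2 and Fosl1 cross 0 when arrays are centred on ribosomal protein genes.

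Fresh replicate 1 was the array with the highest Thbs4 and Tnmd. Without it, the log2 fold changes were -6.13 for Fos, -4.48 for Fosb, -4.16 for Jun and -3.82 for Junb. Jund was at -2.86, Fosl2 at -1.32 and Fosl1 at -0.67, and limma called the same 6 genes.

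The scaling between arrays bore on the calls of the smaller changes and on the size of the larger ones. After a further quantile normalization Fosl1 was at -0.14 with a limma adjusted p of 0.732, and Fosl2 at -0.87 with 0.0831. Fos was then at -5.58, Fosb at -3.70, Jun at -3.31, Junb at -3.36 and Jund at -1.90. Each of these falls was smaller than its interval on the deposited scale, which ended at -5.61 for Fos and -2.23 for Jund. With cyclic loess Fos (-5.51) and Jund (-2.17) were again outside their intervals, and Fosb (-3.81), Jun (-3.41) and Junb (-3.515) inside. With arrays centred on 16 ribosomal protein genes, a setting that moves the median of all genes to 1.81, Fosl1 was at 0.97 and Fosl2 at 0.56. That setting adds the same amount to every gene, so by construction any smaller fall turns positive, and it gives no separate evidence on these genes. The ribosomal protein medians were 10.75, 8.65 and 9.12 on cultured replicates 1, 2 and 3, against 11.36, 11.24 and 11.22 on the fresh arrays. Under that centring Fos, Fosb, Jun and Junb were at -4.26, -2.49, -2.13 and -2.12, and Jund at -0.95.

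Differences between members were compared within each array, which takes out any shift that both genes share. Neighbours in the order of change gave 6 pairs. With 3 arrays against 3, an exact permutation test cannot go below a p of 0.10, so no pair could pass a threshold of 0.05. The log2 difference Fos minus Fosb was -0.63, -0.26 and -0.75 on the cultured arrays, against 1.47, 1.18 and 1.03 on the fresh arrays. The change of -1.77 ± 0.19 (SE) was larger than the spread between replicates, at the smallest two-sided exact p of 0.10, or 0.20 adjusted over the 6 pairs.

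Jund minus Fosl2 was the tightest pair, at 1.15, 1.14 and 1.02 on the cultured arrays, against 2.57, 2.55 and 2.73 on the fresh arrays. Its change was -1.51 ± 0.07 (SE), with an exact permutation p of 0.10 and an adjusted p of 0.20. That SE does not cover the scaling, since the change was -1.03 after quantile normalization and -1.13 with cyclic loess. A shift that varies with level is not taken out within an array, and in fresh cells Jund averaged 8.72 against 6.10 for Fosl2. Junb minus Jund averaged -1.46 ± 0.69 in cultured cells and -0.29 ± 0.38 in fresh cells (SD, n = 3 each), a change of -1.17 ± 0.46 (SE) with the same exact p of 0.10. The groups did not overlap for these pairs. By contrast, Fosb minus Jun changed by -0.36 ± 0.24 (SE; exact p = 0.20, adjusted 0.30), Jun minus Junb by -0.01 ± 0.39 (exact p = 1, adjusted 1), and Fosl2 minus Fosl1 by -0.41 ± 0.39 (exact p = 0.40, adjusted 0.48), and these groups overlapped. The pairs were taken from the order seen on these arrays, and at this number of arrays the overlap does not show that Fosb, Jun and Junb, or Fosl2 and Fosl1, changed alike.

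**Figure D3:**
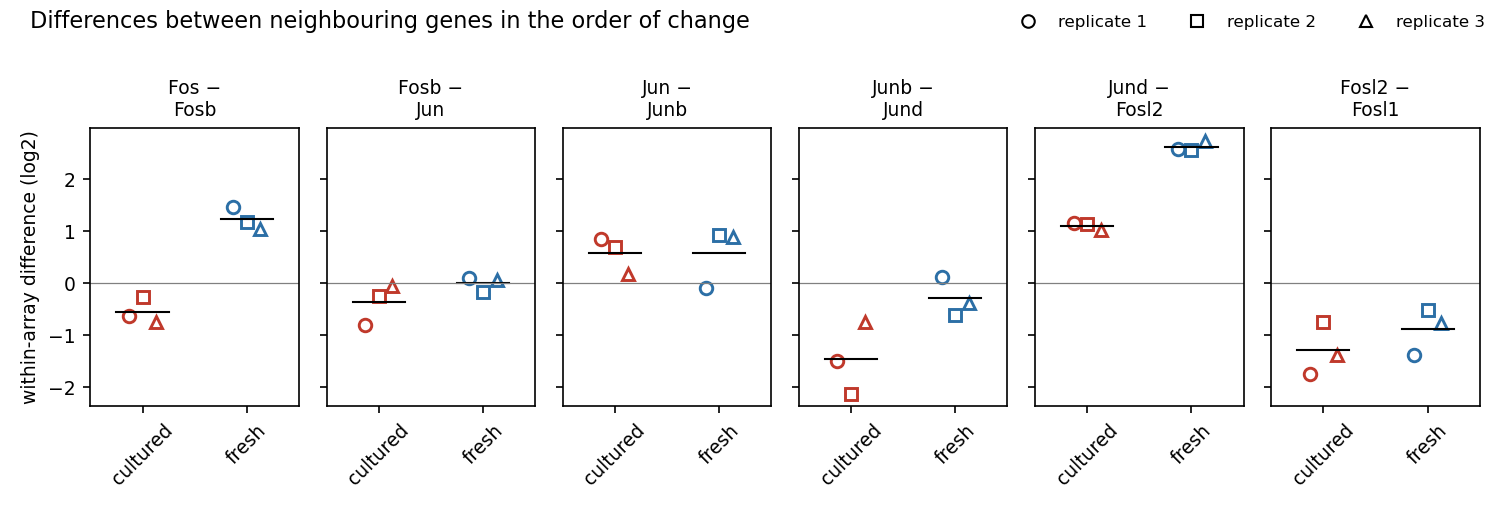
Within-array log2 difference between neighbouring genes in the order of change, on 3 cultured arrays (red) and 3 fresh arrays (blue), with horizontal bars at the means. Fos minus Fosb, Junb minus Jund and Jund minus Fosl2 separate the groups, and the other 3 pairs overlap.

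Genes were also ranked by likeness to each member, as the root mean square difference of the 6 array values after centring each gene on its mean. Nearest to Fos were Chodl, a marker of quiescent satellite cells, at 0.27, the heat shock cochaperone gene Dnajb1 at 0.35 and the chemokine gene Cxcl1 at 0.41. Nearest to Fosb were the inflammatory caspase gene Casp4 (0.20), the glutamine synthetase gene Glul (0.22) and the stress-induced phosphatase regulator Ppp1r15a (0.26). Casp4 was also nearest to Jun (0.19), followed by Zfp36l1 (0.20), which promotes mRNA decay, and Rhoj (0.24), a small GTPase. The growth arrest gene Gadd45b (0.20), Chrdl2 (0.20), a bone morphogenetic protein antagonist, and Rhoj (0.20) were nearest to Junb. Jund lay nearest to Tnfaip6 (0.09), a hyaluronan-binding protein gene, the kinase gene Sgk1 (0.12) and the surface glycoprotein gene Cd200 (0.22). Fosl2 was most like Ptx3 (0.13), Ccng2 (0.14) and Snap23 (0.14), and Fosl1 most like Eea1 (0.06), Ech1 (0.10) and Vapa (0.11). With 2 groups and 6 arrays, such likeness mostly reflects a similar size of change. On every cultured array Casp4 (2.19 to 2.22), Chodl (2.43 to 2.59) and Ccng2 (2.90 to 3.15) were under the background of 3.23. The size of their falls can therefore be understated.

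Other basic leucine zipper genes encode proteins that pair with Fos or Jun proteins or bind related sites. Of 18 measured, 5 were lower and none higher, against 3.37% and 0.953% of all genes. Their median log2 fold change was -0.25. The stress-induced Atf3 had values of 4.55, 5.16 and 4.99 on the cultured arrays, against 9.18, 9.30 and 9.27 on the fresh arrays, a log2 fold change of -4.35. The small Maf genes Maff (-3.97) and Mafk (-1.96) fell. Maff averaged 3.46 in cultured cells, 0.23 above background, so its fall can be understated. Atf4 (-1.87), a factor of the integrated stress response, and Nfe2l2 (-1.73), which drives antioxidant genes, fell too. The remaining 13 did not pass.

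The median log2 fold change of 25 kinases and factors that act upstream of Fos and Jun was -0.03. Of these 25 genes 3 fell, against 3.37% of all genes, and none rose. They were Rps6ka3, a kinase of the ERK pathway (-1.46, limma adjusted p = 0.0159), Crem, a factor that binds cyclic AMP response elements (-1.45, 0.00389), and Elk4, a partner of serum response factor (-1.22, 0.0109). Crem was within background in the cultured cells at 2.76, so the arrays limit its fall from one side only. The kinase gene Map2k4 was at 0.63 with a limma adjusted p of 0.212, from levels within background in both groups. In fresh cells 8 of the 25 were at or under background and in cultured cells 11 were, and for those the arrays give little information.

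Genes of AP-1 mRNA and protein turnover and of its coregulators had 4 of 17 members lower, against 3.37% of all genes, and none higher. Their median was -0.23. Zfp36, which binds AU-rich elements and speeds the decay of short-lived mRNAs, fell by 5.27 on the log2 scale, to values of 3.25, 3.94 and 3.22 on the cultured arrays, against 8.86, 8.46 and 8.88 on the fresh arrays. Its relative Zfp36l1 (-3.64), the histone acetyltransferase gene Crebbp (-1.19) and the SUMO ligase gene Pias1 (-0.81) fell too. In cultured cells Zfp36 and Zfp36l1 both averaged 3.47, 0.24 above background, so their falls can be understated. Pias1 was within background there, at 3.18. Zfp36l2 at -1.64 and the coactivator gene Ncoa1 at -1.24 did not pass, with limma adjusted p of 0.0733 and 0.0510.

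Genes described as AP-1 targets in other cells, with Art1 added to their list, did not move together. Of 24 measured, 7 were at or under background in fresh cells and 9 in cultured cells, and for those the arrays give little information. Over all genes 3.37% fell and 0.953% rose. Of the 24, 5 fell, 1 rose and 18 did not pass, with a median of -0.09. The 5 were the metallothionein gene Mt2 (-7.10), the chemokine gene Ccl2 (-3.57), the haem oxygenase gene Hmox1 (-2.66), the cytokine gene Il6 (-1.54) and the urokinase gene Plau (-0.77). In fresh cells Mt2, at 14.7, was close to the brightest probe sets of the array, and Il6 near or under background throughout. The integrin gene Itgb4 rose by 0.65, at a limma adjusted p of 0.0481, a call lost when cultured replicate 3 or any single fresh array was left out. The protease inhibitor gene Timp1 was at 1.90 with a limma adjusted p of 0.0767. Art1, a mono-ADP-ribosyltransferase gene, had values of 3.55, 3.36 and 3.96 on the cultured arrays, against 3.25, 3.14 and 3.46 on the fresh arrays, with a limma adjusted p of 0.406. It was thus close to background in both groups.

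**Figure D4:**
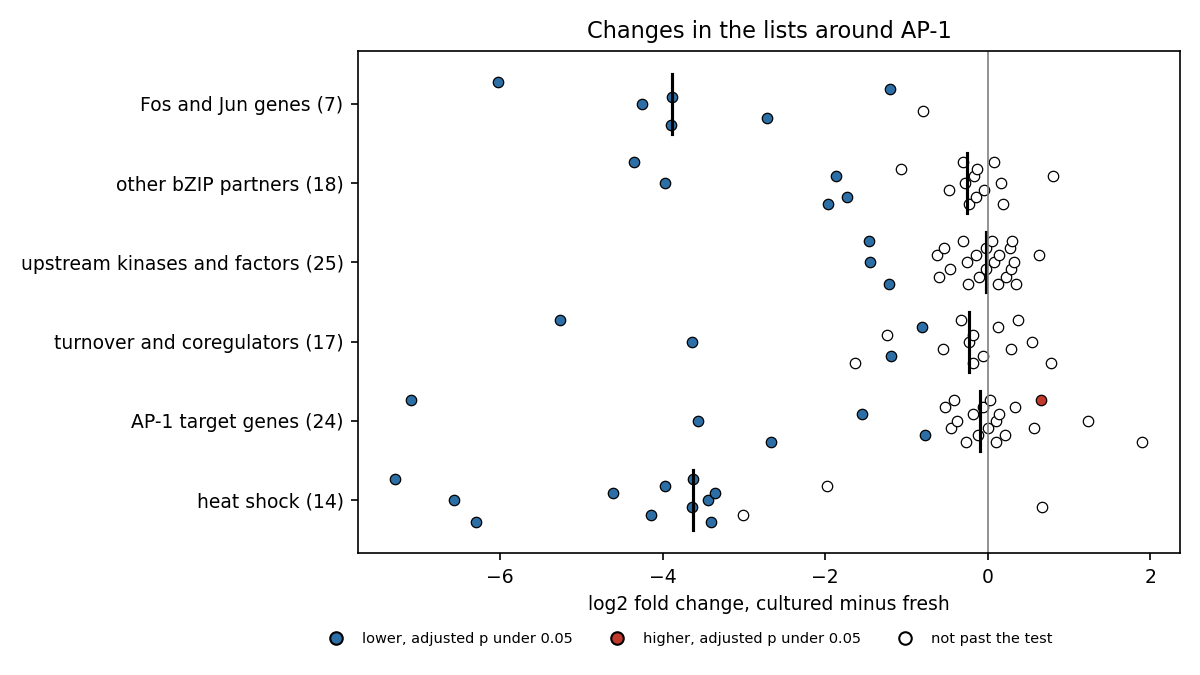
Log2 fold change, cultured minus fresh, of every measured gene in 6 lists, with the number of genes in brackets and a vertical bar at each list's median. Filled points passed an adjusted p of 0.05. The medians are -3.89 for the Fos and Jun genes and -3.63 for heat shock genes, and between -0.25 and -0.03 for the other 4 lists.

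Heat shock genes were mostly lower in the cultured cells. Of 14 measured, 11 were lower and none higher, against 3.37% and 0.953% of all genes. Hspb8 was at 0.67 and did not pass. Of 66 genes with a fresh mean of 9.5 to 11, a choice that favours genes that fell, 34.8% were called lower. The median of the heat shock genes was -3.63. Their mean level was 7.15, 5.73 and 6.37 on cultured replicates 1, 2 and 3, against 9.99, 10.63 and 10.35 on the fresh arrays. The lowest log2 fold changes were those of the inducible chaperone gene Hspa1a (-7.29), of Dnajb1 (-6.57), of the small heat shock gene Hspb1 (-6.30) and of Dnajb4 (-4.62). Their part in the fall of the Fos and Jun genes was not tested.

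By the mean of the fresh arrays, all 11 satellite cell markers were above background, but so were 4 of 5 fibro-adipogenic markers and all 3 tendon markers. On single fresh arrays, Tnmd was under the fresh background of 3.16 on replicates 2 and 3, at 2.57 and 2.93. Thbs4 was under it on replicate 3, at 2.98. In the cultured cells 7 of the 11 satellite cell markers were lower, against 3.37% of all genes. Among them were Chodl (-5.90), Sdc4 (-2.91), Vcam1 (-2.69) and Cxcr4 (-2.47), and Chodl was within background. Of the fibro-adipogenic markers, Dpt and Dcn were lower, averaging 2.42 and 2.87 in cultured cells against 7.44 and 7.39 in fresh cells. Both were within background in cultured cells, so only a bound on their falls can be given. Lum was within background in both groups and Pdgfra above it in both. Col1a1 was also above background in both, at 5.12 in cultured and 5.25 in fresh cells, and was not called. Across the 5 markers the mean level was 3.31, 3.16 and 3.24 on the cultured arrays, against 5.58, 5.25 and 4.90 on the fresh arrays. The part of these markers in the AP-1 result was not tested. Pecam1, Cdh5, Kdr and Emcn of the endothelial list were within background in both groups. So were Ptprc, Itgam, Csf1r, Lyz2 and Cd79a of the leukocyte list. Endothelial Vwf (4.04 in cultured and 3.995 in fresh cells) and leukocyte Cd3e (3.74 and 3.72) were above background in both groups. Leukocyte Cd68 (3.74) and endothelial Tek (3.34) were above it in fresh cells only. Of 6 endothelial markers 1 was called, Tek at -0.76, and none of the 7 leukocyte, 4 mural, 2 Schwann, 3 tendon and 1 erythroid markers was called by limma.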

How the data were processed

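The labels' protocols state Trizol extraction and biotin labelling with a whole-transcript kit. The table deposited by the authors holds log2 values of 35556 probe sets on 6 arrays. RMA and oligo were used, per the submitters' processing notes, with no version. RMA subtracts background, normalizes quantiles and summarises probes. The sources used here do not give the genome build. Precision is limited by the 6 arrays.

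Of the probe sets, 21789 had 1 gene in the platform annotation, 1621 several and 12146 none listed. The probe set kept per gene was the brightest by mean. The test was limma 3.58.1 in R 4.3.3 (lmFit and eBayes, group as the only term, no filter), with Benjamini-Hochberg adjustment over all genes. Background was the 95th percentile of the group means of 1194 receptor genes, 3.23 in cultured and 3.16 in fresh cells. The code was tested on simulated data.

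Members and lists were chosen with earlier results of these data known. Named genes were the members, the 4 largest changes of each pathway list, the called genes where 5 or fewer were called, Art1 and the 3 genes most like each member. Promoter motifs were chosen after the sequences were seen. Alternatives were a replicate block, other priors and weights, scalings, filters, probe set rules, treat and leaving out each array.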

Additional observations from a re-analysis of the deposited data

How the results depend on the processing

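Fos, Fosb, Jun and Junb kept their direction and their call under all 18 alternatives, and Jund under 17, the exception being centring on ribosomal protein genes (-0.95, adjusted p = 0.143). Under that centring limma gave every gene the same SE, so its p-values and calls reflect a shift of all genes rather than tests of single genes. Leaving out 1 array gave -6.13 to -5.88 for Fos, -4.48 to -4.07 for Fosb, -4.16 to -3.75 for Jun, -4.08 to -3.72 for Junb, -2.88 to -2.56 for Jund, -1.35 to -1.06 for Fosl2 and -0.996 to -0.67 for Fosl1. Fosl2 lost its call after quantile normalization (-0.87) and turned to 0.56 with ribosomal centring, where Fosl1 turned to 0.97. Fosl1 passed with array weights (-0.84, adjusted p = 0.0253) and with median centring (-0.86, 0.0477). Jund minus Fosl2 was -1.03 after quantile normalization and -1.13 with cyclic loess. Under the same settings Fos was at -5.58 and -5.51, and Jund at -1.90 and -2.17.

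Of all genes 861 were called, 671 lower and 190 higher. Leaving out 1 array gave 448 to 1517 calls, 380 to 1278 lower and 51 to 279 higher. Dropping fresh replicate 2 gave 478, fresh replicate 3 gave 471, cultured replicate 3 gave 448 and cultured replicate 1 gave 1517. Array weights gave 1742 (1157 lower, 585 higher), quantile normalization 1595 (698 higher), cyclic loess 1515 (1017 lower, 498 higher) and treat against 1.2-fold 557 (71 higher). Ribosomal centring gave 18086 (105 lower, 17981 higher), since it adds the same shift to every gene. The share of calls that were higher was 22.1% as deposited, 43.8% after quantile normalization and 32.9% with cyclic loess.

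With the replicate block, 662 genes were called (101 higher), the same 6 Fos and Jun genes were called lower (5 to 7 when 1 array was left out), and the turnover list had 2 lower. Same-numbered arrays had deviations correlated at -0.09, -0.14 and 0.03, and not every array correlated best with its own number, so the numbers were not used as pairs. Whether same-numbered arrays share a mouse is not known.

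Among the lists, leaving out 1 array gave 1 to 4 upstream genes lower and 0 to 1 higher, 3 to 5 bZIP partners lower, 2 to 6 turnover genes lower, and 3 to 5 AP-1 targets lower with 0 to 2 higher. Quantile normalization gave 1 bZIP partner, 2 turnover genes and 4 AP-1 targets higher, and cyclic loess 3 AP-1 targets higher. Ribosomal centring gave 0 upstream genes lower and 19 higher, 2 bZIP partners lower and 12 higher, 2 turnover genes lower and 10 higher, and 2 AP-1 targets lower and 18 higher. The moves under ribosomal centring follow from the same shift being added to every gene. The cause of the other moves was not tested. Signal over background limits Fos most among the 7 genes, at 0.98 in cultured cells.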

Other observations

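The fresh arrays did not hold the same level of each subunit. Fresh replicate 1 had the lowest fresh value of Fos, Fosb, Fosl2, Jun and Jund, by 0.54 below the fresh mean for Jun and by 0.44 for Fosb, and the highest fresh value of Junb and Fosl1. The mean level of the heat shock genes was also lowest there, at 9.99 against 10.63 and 10.35 on fresh replicates 2 and 3. Other markers stood apart there too. The mean of the 11 satellite cell markers was 6.27 against 6.81 and 6.79, that of the 3 tendon markers 5.41 against 3.90 and 3.53, and Dcn was at 8.53 against 7.78 and 5.86. In the cultured cells no array was lowest for most genes. Fos and Fosb were lowest on replicate 1, Fosl1, Jun and Junb on replicate 2, and Fosl2 and Jund on replicate 3. These differences rest on single arrays and were not tested.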
